A study of Homo sapiens with 3 samples.

Results

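The HOX genes of the 4 human clusters were compared in a lung cancer cell line and its osimertinib-resistant derivatives. A gene was taken as a member when its name on the array was HOXA, HOXB, HOXC or HOXD followed by a number. This gave 39 of the 43316 genes and unnamed transcripts on the array, with 11 in HOXA, 10 in HOXB, 9 in HOXC and 9 in HOXD. RNA of 3 lines was measured, each on 1 Agilent single-colour array, and the 3 arrays shared a slide. H1975 is a non-small cell lung cancer line whose EGFR carries an activating and a drug-resistance mutation. OR1 and OR2 are osimertinib-resistant lines that were selected separately from H1975 with rising doses of osimertinib, an EGFR inhibitor, up to 2 μmol/L over 4 months. All 3 lines were grown in the same serum-containing RPMI medium. The study calls OR1 and OR2 clones, so each stands for 1 selected line, and whether the drug was present at harvest is not given in the sources used here. With 1 array per line there was no biological replicate, so no p-value is given, and the errors shown are the scanner software's technical SD for a spot. This SD is the software's estimate, and it was the same for many bright probes (log2 0.144 for KRT8, KRT18 and VIM in all 3 lines). It does not measure the spread between cultures or between arrays.

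HOX genes encode transcription factors that bind DNA through a homeodomain, the product of a conserved sequence called the homeobox. They give cells their position along the body axis, and their order on the chromosome follows the order in which they are switched on along that axis. Genes at the same place in different clusters are called a paralog group, here anterior for groups 1 to 3, central for groups 4 to 8 and posterior for groups 9 to 13. Many adult tissues and tumors keep the set of HOX genes of their place of origin. Polycomb proteins keep silent clusters closed, MLL proteins keep active ones open, retinoic acid turns on anterior genes, and PBX and MEIS proteins bind DNA together with HOX proteins.

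Each member was read by 1 or more 60-base probes, 48 in all, and 7 members had several probes. The probes covered part of chromosome 7 in HOXA, 194 kb of chromosome 17 in HOXB (46607916 to 46802203), 110 kb of chromosome 12 in HOXC (54340034 to 54449814) and 94.8 kb of chromosome 2 in HOXD (176960600 to 177055431), all on hg19. Of the 39 members, 38 had an mRNA accession found in RefSeq, each time with the same symbol. Because paralogs resemble each other most in the homeobox, probes within it were looked for. Probes were compared only with each other and not with the transcripts of paralogs. Whether a probe also binds the transcript of a paralog was therefore not tested. Reading the probes in their forward frames, 7 were found to hold codons of 1 or 2 of 3 conserved homeodomain stretches, shown in capitals, and the probe that carried the HOXA10 result is added without capitals. HOXA10 is printed because its probe spans an exon junction in the coding part and gave another ratio than the second HOXA10 probe.
HOXA9: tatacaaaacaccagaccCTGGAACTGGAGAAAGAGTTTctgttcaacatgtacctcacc
HOXC5: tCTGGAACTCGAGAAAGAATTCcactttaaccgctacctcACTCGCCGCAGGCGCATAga
HOXA5: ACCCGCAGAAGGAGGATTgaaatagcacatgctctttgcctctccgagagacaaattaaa
HOXD8: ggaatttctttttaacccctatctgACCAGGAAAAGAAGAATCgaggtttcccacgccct
HOXB2: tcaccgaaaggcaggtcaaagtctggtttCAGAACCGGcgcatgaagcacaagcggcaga
HOXC10: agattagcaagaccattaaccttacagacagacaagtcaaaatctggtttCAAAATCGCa
HOXD9: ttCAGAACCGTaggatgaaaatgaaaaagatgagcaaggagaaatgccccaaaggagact
HOXA10: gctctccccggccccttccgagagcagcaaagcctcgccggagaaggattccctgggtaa
In the first stretch, HOXA9 and HOXC5 shared 18 of 21 bases. In the second, HOXA5 shared 12 of 18 bases with HOXC5 and 12 of 18 with HOXD8, and the last pair shared 8. In the third, which lies in the helix that reads DNA, HOXB2 and HOXD9 shared 8 of 9 bases. Across all 1116 pairs of probes of different members, the longest run of identical bases was 13. The HOXA5 probe gave signals of 41.9 for H1975, 31.3 for OR1 and 43.9 for OR2, and was the 1 homeobox probe called well above background. The other 6 stayed below that call on all 3 arrays, at signals of 2.42 to 11.1. They belong to HOXC5, HOXD8, HOXB2, HOXC10, HOXD9 and HOXA9, of which HOXA9 was detected by other probes of the gene.

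A signal is the scanner software's processed intensity of a spot in arbitrary units, corrected for background within the array. Levels can be compared for 1 gene between lines but not between genes, whose probes differ. A gene was taken as detected in a line when the software called its brightest probe well above background there. By this call 11 members (28.2%) were detected in H1975, 12 (30.8%) in OR1 and 13 (33.3%) in OR2. Of all genes on the array, 46.9%, 47.3% and 47.0% were detected in the same order, and of 124 other homeobox genes, 45.2%, 46.8% and 45.2%. The same 11 members were detected in all 3 lines, and 26 in none.

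**Figure D1:**
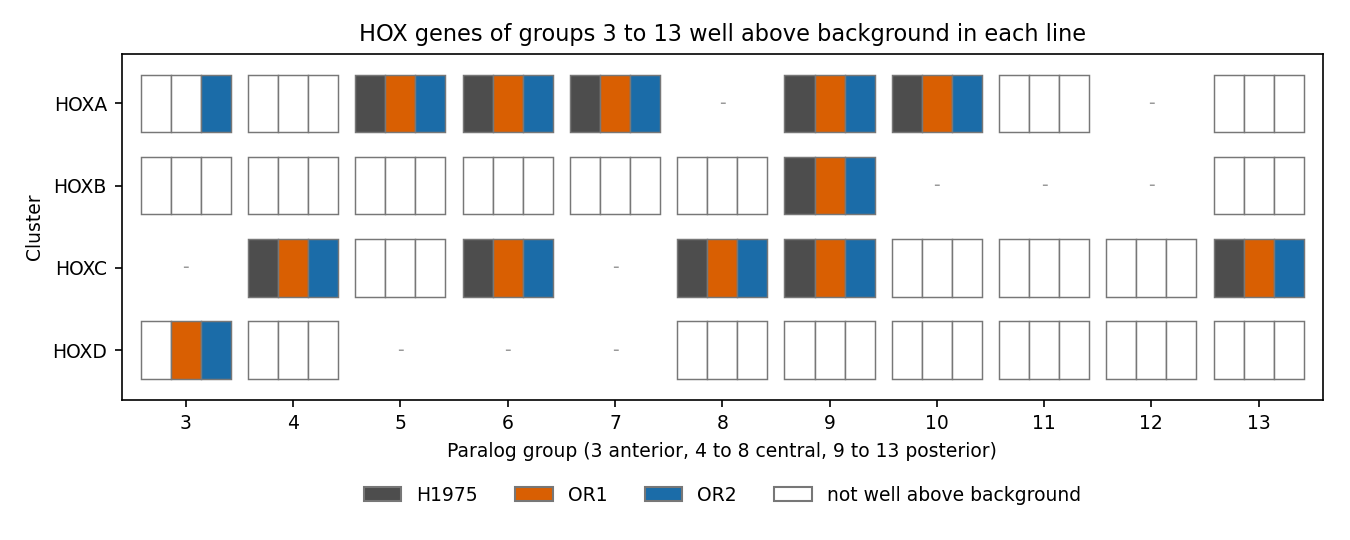
Detection of the HOX genes of paralog groups 3 to 13, with clusters as rows and groups as columns. Each cell holds 3 boxes for H1975, OR1 and OR2, filled where the gene was well above background, and a dash marks a place with no gene; 11 genes are filled in all 3 lines, HOXA3 in OR2 alone and HOXD3 in OR1 and OR2.

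In HOXA, the neighbors HOXA5, HOXA6, HOXA7, HOXA9 and HOXA10 were detected in all 3 lines, and HOXA3 in OR2 alone. HOXA2, HOXA4, HOXA11 and HOXA13 were not detected. In HOXC, HOXC4, HOXC6, HOXC8, HOXC9 and HOXC13 were detected in all 3 lines, and HOXC5, HOXC10, HOXC11 and HOXC12 were not. In HOXB, HOXB9 was the only member detected, and HOXB1 to HOXB8 and HOXB13 were not. In HOXD, HOXD3 was detected in OR1 and OR2, while HOXD1, HOXD4 and HOXD8 to HOXD13 were not. By position, H1975 had 0 of 8 anterior, 6 of 15 central and 5 of 16 posterior members detected. OR1 had 1 anterior member more and OR2 had 2 more, and the central and posterior counts stayed the same in all 3 lines. Paralog group 9 had the most members detected, 3 of 4, while groups 2, 11 and 12 had none.

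**Figure D2:**
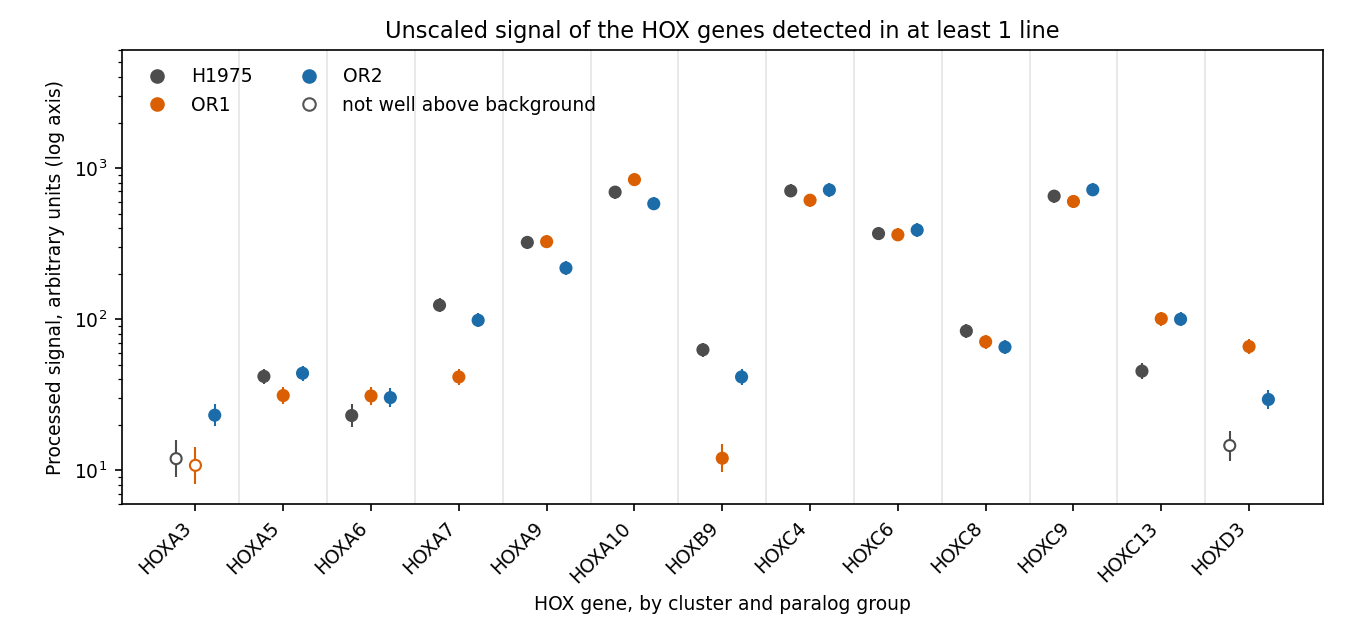
Processed signal, in arbitrary units on a log axis, of the 13 HOX genes detected in at least 1 line, with 1 point per array and bars of 1 technical SD; open points were not well above background. Points are to be compared within a gene, where HOXC4, HOXC6 and HOXC9 differ little between lines, HOXC13 is higher in both OR lines, and HOXA7 and HOXB9 are lowest in OR1.

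For ratios, each array was scaled on its 75th percentile (signals of 157, 138 and 162 for H1975, OR1 and OR2). A gene was called up-regulated at a ratio to H1975 of at least 2 when detected in the OR line, and down-regulated at a ratio of at most 0.5 when detected in H1975. Where 1 side was not detected, it was set to the lowest detected signal of its array (12.6, 11.4 and 12.6 for the 3 lines) or to its own if higher. The ratio is then printed as a bound, which equals the measured ratio where the side's own signal was used. In OR1, 2 of the 39 members were up-regulated (HOXC13 and HOXD3) and 2 were down-regulated (HOXA7 and HOXB9). Among all genes, 4.63% were up-regulated and 4.83% down-regulated in OR1. In OR2, 1 member was up-regulated (HOXC13) and 0 were down-regulated, beside 3.87% and 4.35% of all genes. HOXC13 was the 1 member up-regulated in both lines and 0 were down-regulated in both, beside 2.63% and 3.27% of all genes. Most members could not be called, because they were not detected. Of the 11 detected in all 3 lines, 8 had a ratio between 0.85 and 1.54 in OR1 and 10, all but HOXC13, between 0.64 and 1.28 in OR2.

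These 11 had a median log2 ratio of 0.07 for OR1 and -0.02 for OR2. Over all 18591 genes detected in all 3 lines it was 0.03 and -0.05. Of those genes, 7.74% were up-regulated and 7.94% down-regulated in OR1, and 6.67% and 6.7% in OR2. Counted the same way, HOXC13 was up-regulated in both lines and HOXA7 and HOXB9 were down-regulated in OR1. The technical SD of the log2 ratios of the 11 members lay between 0.20 and 0.34. In OR1, 5 of the 11 ratios were within 1 technical SD of no change, and in OR2, 4 were. The HOX median was therefore close to that of the array as a whole, and single members lay far from it.

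**Figure D3:**
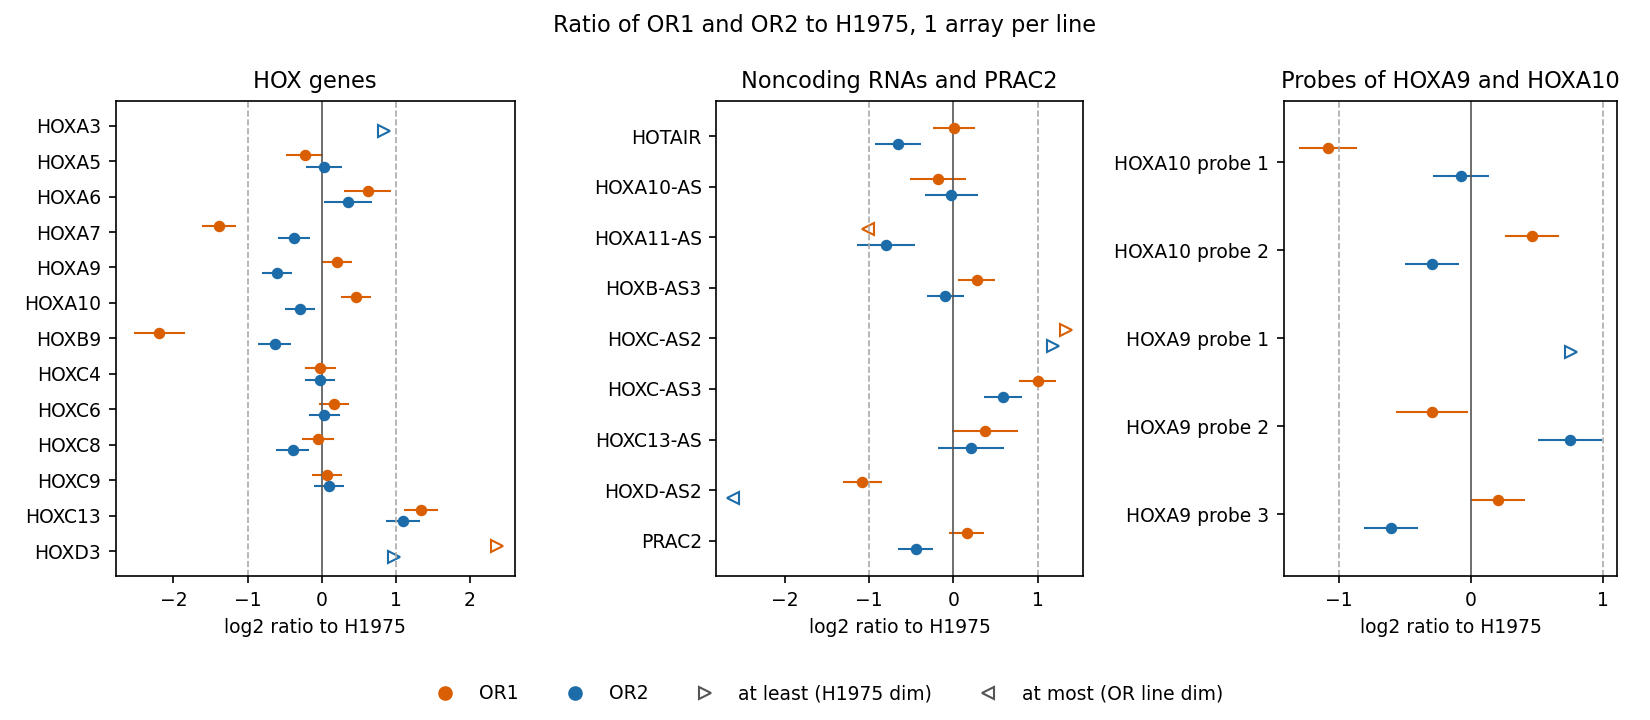
Log2 ratio to H1975 in OR1 and OR2, after scaling on the 75th percentile, for the detected HOX genes, the detected noncoding RNAs with PRAC2, and the single probes of HOXA9 and HOXA10 that were detected in at least 1 line, numbered along the chromosome. Filled points have bars of 1 technical SD, open triangles are bounds where 1 side was not detected, and dashed lines mark ratios of 0.5 and 2; HOXC13 and HOXC-AS2 lie above 2 in both lines, and the 2 probes of HOXA10 lie on opposite sides of 0 in OR1.

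HOXC held 3 members with nearly even levels and the 1 member called in both lines. HOXC4, the member at the 3′ end of the cluster, had signals of 706 for H1975, 613 for OR1 and 716 for OR2, and ratios of 0.99 in both OR lines. HOXC6 gave 369, 362 and 389 in the same order, with ratios of 1.12 and 1.03. HOXC9 gave 652, 601 and 718, with ratios of 1.05 and 1.07. For these 3 genes every difference from H1975 was within 1 technical SD. HOXC8 gave 83.6, 71.0 and 65.4, with ratios of 0.97 in OR1 and 0.76 in OR2 (log2 -0.39, technical SD 0.22). HOXC13, the member at the other end of the cluster and a regulator of hair keratin genes, gave 45.4 for H1975, 101 for OR1 and 100.03 for OR2. Both resistant lines lay above H1975, and OR2 was at 0.85 of OR1 after scaling. The ratio of HOXC13 to H1975 reached 2.53 for OR1 (log2 1.34, technical SD 0.23) and 2.15 for OR2 (log2 1.101, technical SD 0.23). Under normexp background correction with an offset of 50 it was 1.65 and 1.49, and on spike-in scaling it was 1.67 in OR1, so that it was no longer called there.

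HOXA held 1 called member and 1 pair of genes with disagreeing probes. HOXA5, a regulator of lung development, had ratios of 0.85 and 1.02. HOXA6 gave 23.1, 31.1 and 30.3, with ratios of 1.54 (log2 0.62, technical SD 0.31) and 1.28, and its second probe was not detected. HOXA7 gave 124 for H1975, 41.5 for OR1 and 98.5 for OR2. OR1 was the low line, with a ratio of 0.38 (log2 -1.39, technical SD 0.23), while OR2 was at 0.77 (log2 -0.37, technical SD 0.21). HOXA7 was 2.02 times higher in OR2 than in OR1. HOXA3 gave 12.0 in H1975 and 10.8 in OR1, neither well above background, and 23.2 in OR2, a ratio to H1975 of at least 1.80.

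HOXA9 and HOXA10 are posterior members known from leukemia, where they are kept active by MLL fusion proteins. The brightest HOXA9 probe (27203145 to 27203204) gave 322, 326 and 218 for H1975, OR1 and OR2. That is a ratio of 1.15 for OR1 (log2 0.21, technical SD 0.20) and 0.66 for OR2 (log2 -0.60, technical SD 0.21). The HOXA9 probe at 27202588 to 27202647 gave 37.8, 26.96 and 65.2, with ratios of 0.81 in OR1 and 1.68 in OR2. The probe closest to the 3′ end (27202258 to 27202317) was detected in OR2 alone, at 21.8. The homeobox probe of HOXA9 printed above (27203345 to 27203404) gave 3.04, 8.48 and 6.61 and was not detected in any line. The 4 probes of HOXA9 therefore gave no single order of the lines, and the median over them put HOXA9 at 1.01 for OR1 and 2.14 for OR2.

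The HOXA10 probe over the exon junction printed above (27211789 to 27213023, both ends included) gave 693, 839 and 581 for the 3 lines. OR1 was the high line here, at 1.38 times H1975 (log2 0.46, technical SD 0.20), and OR2 was at 0.82 (log2 -0.29, technical SD 0.20). The second HOXA10 probe (27211235 to 27211294) gave 130, 54.1 and 127. By this probe OR1 was the low line, with a ratio of 0.47 (log2 -1.08, technical SD 0.22), and OR2 was at 0.95. OR2 over OR1 was 0.59 by the junction probe and 2.01 by the second. The same split was seen in HOXA9, at 0.57 by its brightest probe and 2.06 by the probe at 27202588. So HOXA10 was down-regulated in OR1 by 1 of its 2 probes, and the direction in OR1 differed between them by more than their technical SD.

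HOXB and HOXD held 1 detected member each. HOXB9 gave 62.8 for H1975, 12.0 for OR1 and 41.5 for OR2. The OR1 value was just over the lowest detected signal of that array. HOXB9 was thus at 0.22 of H1975 for OR1 (log2 -2.19, technical SD 0.34) and at 0.64 for OR2 (log2 -0.64, technical SD 0.23). Under normexp with an offset of 50 the OR1 ratio of HOXB9 was 0.59 and that of HOXA7 was 0.64, so that neither was called. HOXD3 gave 14.6 for H1975, too dim for detection, 66.0 for OR1 and 29.5 for OR2. Both resistant lines lay above H1975, with bounds of 5.15 in OR1 and 1.96 in OR2 that equal the measured ratios. The technical SD of the log2 ratio was 0.36 in OR1 and 0.39 in OR2. The second HOXD3 probe (177004062 to 177004121), some distance away, was not detected in any line, and the normexp ratio in OR1 was 1.81. The median over both HOXD3 probes, with the dim one at its own signal, gave a ratio of at least 1.27 in OR1, so the call rests on 1 probe. Of the 7 members with several probes, HOXB2, HOXB4 and HOXD9 were below background by both probes.

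OR1 and OR2 were also set against each other, which does not use the H1975 array. HOXA7 and HOXB9 were higher in OR2 by 2.02 and 2.94 times, and HOXD3 was lower at a ratio of 0.38. These were 2 and 1 of the 39 members, beside 1.23% of all genes at least 2 times higher in OR2 and 1.43% at a ratio of 0.5 or less. HOXA9 and HOXA10 were at 0.57 and 0.59 by their brightest probes, and HOXA3 was at least 1.74 times higher in OR2. In all 3 members past the ratio, OR2 lay between OR1 and H1975.

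The clusters also hold noncoding RNAs, several of them antisense to HOX genes, and a list of 24 transcripts, with the small genes PRAC1 and PRAC2, was measured. Of these, 9 were detected in at least 1 line. HOXC-AS2 gave 15.1 for H1975, too dim for detection, 33.3 for OR1 and 35.1 for OR2. It was up-regulated in both lines, with bounds of 2.52 and 2.27 that equal the measured ratios. Its probe lies at 54390454 to 54390513 on the HOXC13 side of HOXC9. HOXC-AS3, between HOXC10 and HOXC11, gave 64.7, 113 and 99.8, with a ratio of 1.999 in OR1, just short of the call, and 1.501 in OR2. HOXC13-AS was near the limit of detection at 15.5, 17.6 and 18.4. HOXD-AS2 gave 75.05 for H1975, 31.2 for OR1 and 9.53 for OR2, the last too dim for detection. It was down-regulated in both lines, at 0.47 and at most 0.16, and its probe (176999583 to 176999642) lies between those of HOXD8, which was not detected, and HOXD3. HOXA11-AS gave 26.2, 2.30 and 15.5, at most 0.50 in OR1 and 0.58 in OR2, and was down-regulated in OR1. HOTAIR, a HOXC transcript known for silencing HOXD in other cells, gave 39.2, 34.6 and 25.5, with ratios of 1.01 and 0.63. HOXA10-AS, HOXB-AS3 and the prostate-associated gene PRAC2 had ratios between 0.73 and 1.21. Under normexp with an offset of 50, 0 of the 24 were called in both lines.

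Genes around the clusters were compared to see whether whole regions moved with the members. The brightest probes of 225 genes and transcripts lay within 1 Mb of the outermost member probes. Of these genes and transcripts, 115 were detected in at least 1 line and 95 in all 3. Distances are those of the probes, and a gene can reach closer to the cluster than its probe. The 95 had a median log2 ratio of -0.24 for OR1 and -0.38 for OR2, beside 0.03 and -0.05 over all genes detected in all 3 lines. By cluster the median of the surrounding genes ran from -0.32 (HOXB) to -0.07 (HOXD) in OR1 and from -0.43 (HOXB) to -0.10 (HOXD) in OR2. Of the 225, 7 were up-regulated and 9 down-regulated in OR1, beside 4.63% and 4.83% of all genes. In OR2 these were 4 and 9, beside 3.87% and 4.35% of all genes. Both lines together had 4 up-regulated and 6 down-regulated, beside 2.63% and 3.27% of all genes. Around HOXC, TNS2 was at 2.45 and 2.84, MAP3K12 at 2.52 and 2.51, and NFE2 at 2.04 and 2.80. On the same side as TNS2, ITGB7 was at 0.11 and 0.13, the retinoic acid receptor RARG at 0.25 and 0.31, and ESPL1 at 0.46 and 0.35. Genes called up and down thus lay side by side around HOXC, all of them outside the span of the HOXC probes. Around HOXB, OSBPL7 was at 0.26 and 0.38 and COPZ2 at 0.28 and 0.44, both before the cluster by 723 and 502 kb. Around HOXA, lnc-KIAA0087-2 was at least 2.66 and 4.66 times higher, and lnc-EVX1-5, between HOXA11 and HOXA13, was at most 0.45 and 0.43. Around HOXD none was called in both lines.

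**Figure D4:**
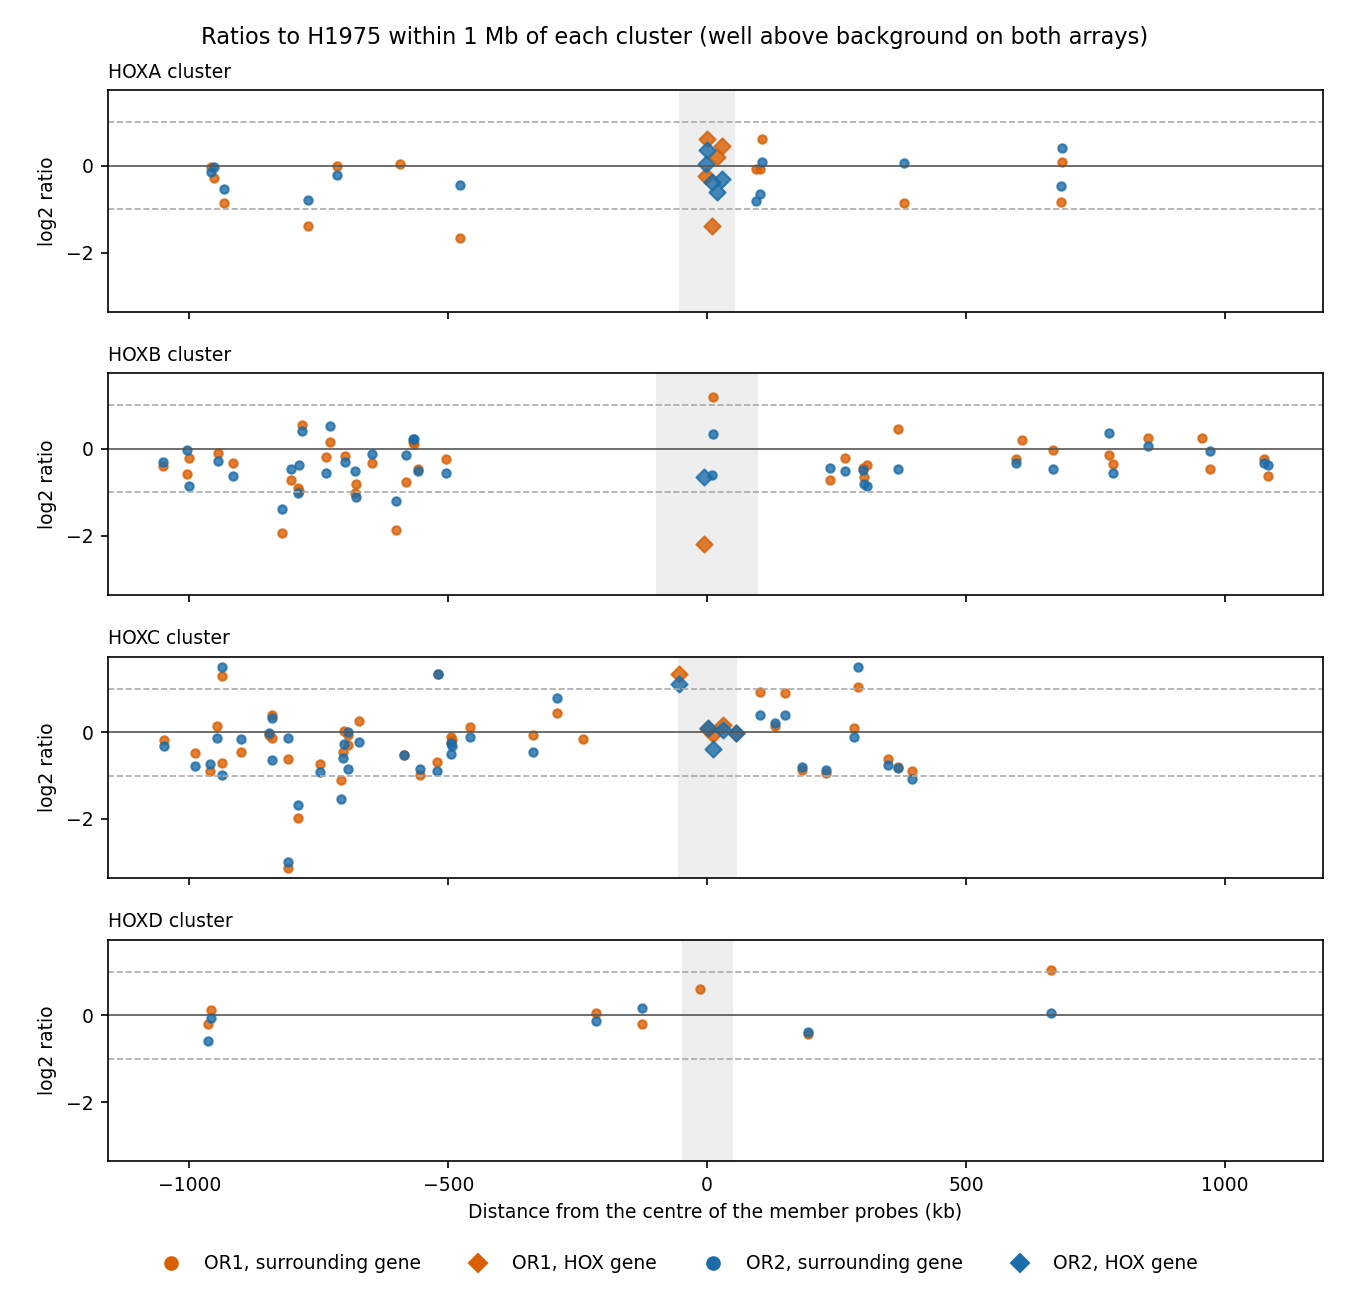
Log2 ratio to H1975 of HOX genes (diamonds) and surrounding genes (circles) against the distance in kb from the centre of the member probes, for OR1 and OR2, with 1 panel per cluster. The grey band is the span of the member probes, dashed lines mark ratios of 0.5 and 2, and genes with a bound are left out; HOXA7 and HOXB9 in OR1 and HOXC13 in both lines are the diamonds beyond the dashed lines.

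The genes nearest to each cluster, by the position of their probes, were mostly not detected. Next to HOXA, the probe of SKAP2 lay 426 kb before the cluster and gave 4047, 1126 and 3074, with ratios of 0.32 and 0.74. On the other side of HOXA, lnc-EVX1-3 was not detected, and EVX1, a homeobox gene with its probe 49.2 kb away, was at 0.95 and 0.64. Next to HOXB, ENST00000579972 and ENST00000495536 were not detected. Next to HOXC, ENST00000566418 gave 26.5, 20.7 and 13.96, the last not well above background, and LOC101928102 was not detected. Next to HOXD, EVX2 was not detected, and MTX2 gave 2020, 1311 and 1590, with ratios of 0.74 and 0.77.

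The partners and regulators of HOX genes were taken from 6 lists with 61 genes, of which 52 were detected in at least 1 line. That is 85.2%, beside 51.8% of all genes. In both lines together, 0 of the 61 were up-regulated and 5 were down-regulated, beside 2.63% and 3.27% of all genes. All 5 came from the retinoid list. Of that list, 8 of 14 were detected, and its median log2 ratio over the 7 detected in all 3 lines was -1.73 in OR1 and -1.68 in OR2. STRA6, the membrane receptor that brings vitamin A into cells, gave 1542, 169 and 175 for H1975, OR1 and OR2, with ratios of 0.12 and 0.11. DHRS3, which turns retinal back into retinol, gave 2282, 604 and 225, with ratios of 0.30 and 0.096. CRABP2, which carries retinoic acid to the nucleus, gave 3014, 788 and 727, with ratios of 0.30 and 0.23. For RARG, a retinoic acid receptor, the signals were 3118, 691 and 1002. ALDH1A3, which makes retinoic acid, gave 276, 105 and 139, with ratios of 0.43 and 0.49, while the median over its probes gave ratios of 1.26 and 1.16. For these 5 genes both resistant lines lay below H1975 by the brightest probe.

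The remaining lists held few calls, and the genes named here were chosen after their values were seen. Over all 61 genes, 2 were up-regulated and 7 down-regulated in OR1, beside 4.63% and 4.83% of all genes. In OR2 these were 3 and 8, beside 3.87% and 4.35%. Of the 61, 51 were detected in all 3 lines. Among all genes so detected, the shares were 7.74% and 7.94% in OR1 and 6.67% and 6.7% in OR2. RARA was at 0.53 in OR1 and 0.45 in OR2, and RXRA at 1.15 and 2.16. Of the 9 PBX, MEIS and PKNOX cofactors, 8 were detected. PBX3 gave 674, 240 and 494 and was down-regulated in OR1 alone, at 0.41, with 0.71 in OR2. PBX4 was at 1.83 and 2.18 and MEIS3 at 1.26 and 2.12, both called in OR2 alone. Of the 11 genes of Polycomb repressive complex 2, which methylates histone H3 on silent clusters, all were detected and 1 was called. This was EZH2, its catalytic subunit, which gave 1781, 665 and 1030, with ratios of 0.43 in OR1 and 0.56 in OR2. Of the 12 genes of Polycomb repressive complex 1, PHC1 was up-regulated in OR1 at 2.55, and CBX2 and RNF2 were down-regulated in OR2 at 0.46 and 0.33. Of the 12 MLL and demethylase genes, MEN1 was up-regulated in OR1 at 2.26 and was at 1.98 in OR2. CDX1 was the only detected gene of the CDX list of 3, at 0.85 and 0.73. Outside the retinoid list, the medians of the log2 ratios lay between -0.46 and 0.16.

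**Figure D5:**
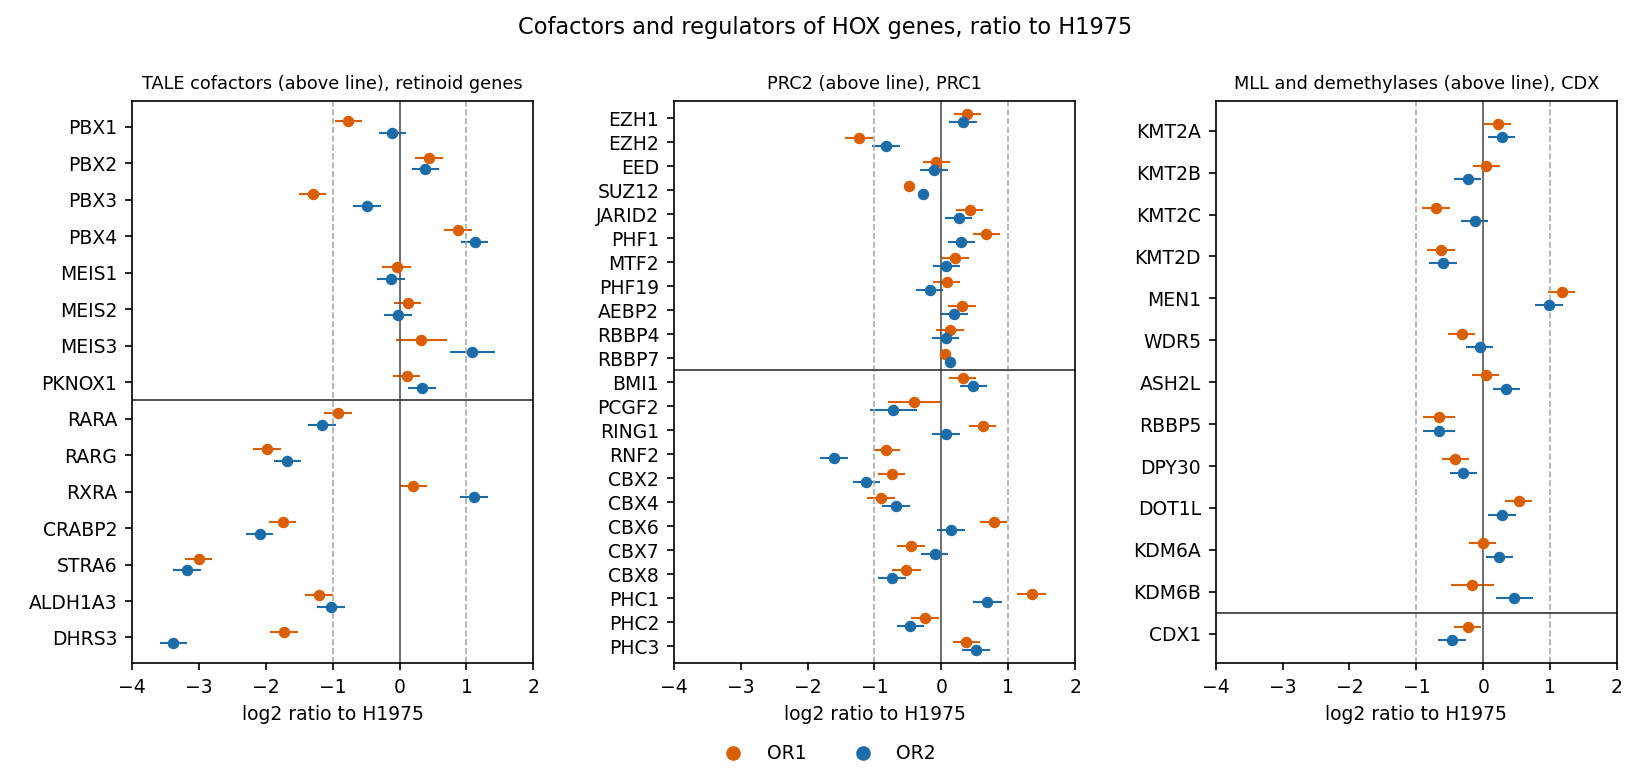
Log2 ratio to H1975 in OR1 and OR2 of the cofactors and regulators detected in all 3 lines, by list, with bars of 1 technical SD and dashed lines at ratios of 0.5 and 2. The retinoid genes RARG, CRABP2, STRA6, ALDH1A3 and DHRS3 lie below 0.5 in both lines, and no gene lies above 2 in both.

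The other homeobox genes of the array were counted beside the members. Of 124 such genes, 64 were detected in at least 1 line and 50 in all 3, the latter with median log2 ratios of -0.03 for OR1 and -0.21 for OR2. In both lines 4 were up-regulated and 4 down-regulated, beside 2.63% and 3.27% of all genes. They are named here after their values were seen. DLX2 was at 5.51 and 4.62, ZEB1 at 4.74 and 5.14, ZFHX2 at 8.66 and 11.2, and SATB1 at least at 15.8 and 8.34. DLX3 was at 0.21 and 0.19, LHX6 at 0.19 and 0.32, OTX1 at 0.45 and 0.44, and IRX2 at most at 0.43 and 0.40. The share called in both lines was 1 of 39 HOX genes and 8 of 124 other homeobox genes. These shares depend on detection, since 26 of the 39 and 60 of the 124 were too dim in every line to be called. Among genes detected in at least 1 line, the shares were 1 of 13 and 8 of 64. Neither difference was tested.

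The labelled cell type was checked against marker genes. Of 8 epithelial and lung adenocarcinoma markers 7 were detected in every line, with KRT8 at 9534, 9361 and 9439 and SFTPB not detected. CDH1 was at 0.02 and 0.08 of H1975, EPCAM at 0.04 and 0.07 and KRT19 at 0.46 and 0.49. The lung factor NKX2-1 gave 832, 184 and 1167, which is 0.25 and 1.36 of H1975. The summed signal of this list was 259932, 129243 and 150466. Of 4 mesenchymal markers 3 were detected, with VIM at 1.58 and 1.83, ZEB1 as given above, FN1 at 0.73 and 0.20, and CDH2 not detected. Their summed signals were 32661, 45480 and 61883. Of 10 fibroblast markers, 4, 4 and 2 were detected in H1975, OR1 and OR2, while COL3A1, DCN, THY1, PDGFRA and POSTN were not detected in any line, and the summed signals were 719, 941 and 315. The detected ones moved both ways, with PDGFRB at 12.0 and 8.40, LUM at least 5.43 times higher in OR1 and not detected in H1975 or OR2, COL1A1 at 1.45 and 0.18, COL1A2 at 0.16 and at most 0.06, and FAP at most 0.77 and 0.73. Of 5 blood and endothelial markers 4 were detected, and the summed signal was 351, 1091 and 1866. Most of it was CD14 in all 3 lines (264, 984 and 1779), with ratios of 4.25 and 6.56. PECAM1 was at 2.10 and 1.19 and VWF at 0.78 and 0.93 of H1975. PTPRC gave signals of 21.0, 20.7 and 20.5, and CD34 was not detected. The part of cell state and of other cells in the HOX ratios was not tested.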

How the data were processed

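Total RNA of H1975, OR1 and OR2 was labeled with Cy3 by the authors and hybridized to 1 Agilent human array per line. The deposited scanner files hold the intensity of each spot, corrected for background within the array by Agilent Feature Extraction (10.7.1.1 in the file headers, 9.5.1.1 in the submitters' processing notes), and its error. A second deposited table holds normalized intensities with 1 value per probe, whose normalization is not given in the sources used here. All 3 samples were mapped to their lines from their labels.

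Control spots and 45 to 61 outlier spots per array were removed, spots of 1 probe were averaged as log2 values, and the 75th percentile over the 58200 probes was subtracted. No spot was saturated. The brightest probe, by mean scaled log2 signal, stood for a gene. Of the genes, 10967 had several probes. Ratios compare 1 array with 1 array, with no test, and the technical SD was propagated from the error column. The number of arrays limits the precision. Every detected HOX gene is named, and 1 HOX gene is counted but not reported here. Of the noncoding RNAs, cofactors, regulators and surrounding genes, those past the ratio in both lines are named, with the nearest gene on each side of a cluster. Other names were chosen after their values were seen. The members and lists were chosen with earlier results of these data known. Positions are those of the files (hg19), and probe sequences come from the same files. RefSeq was used for names only. Counting was tested on simulated arrays with known changes. Python 3.11.15, numpy 2.4.6, pandas 2.3.3, R 4.3.3 and limma 3.58.1 were used.

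Alternatives were quantile normalization, scaling on the median, on 7 spike-in probes, on probes detected in all 3 lines or not at all, a normexp correction (offset 50) of the raw spot means, and the second deposited table. Others changed the background filter, the probe per gene, the outlier spots, or the ratio to 4 or 1.5. Quantile normalization and the second deposited table shifted the all-gene median of the log2 ratio alike, by -0.069 in OR1 and 0.030 in OR2. These 2 alternatives are therefore near repeats of each other.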

Additional observations from a re-analysis of the deposited data

Results flagged for a closer look

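HOXA9 and HOXA10 lay on opposite sides of H1975 in the 2 resistant lines by their brightest probes, each by more than its technical SD. For HOXA9 in OR1 the margin was very small (log2 0.2065, technical SD 0.2047). On median scaling the all-gene median in OR1 shifted by -0.11, which is more than that margin. HOXA9 was at 1.15 in OR1 and 0.66 in OR2, and HOXA10 at 1.38 in OR1 and 0.82 in OR2. Whether OR1 and OR2 truly differ here was not tested, since each rests on 1 array. On spike-in scaling the OR1 ratios were 0.76 for HOXA9 and 0.91 for HOXA10, so that the lines were then on the same side. By the probes of the same genes at 27202588 and 27211235 the order of OR1 and OR2 was the opposite, as given above.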

How the results depend on the processing

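Each line had 1 array, so no array could be left out. No paired analysis was possible because the lines carry no second replicate. Of 292 counts and medians recomputed under the 14 alternatives, 223 stayed within 1.5 times or within the technical SD. The rest follow. For OR1, the all-gene median of the log2 ratio shifted by -0.60 on spike-in scaling, by -0.19 without scaling, by -0.11 on median scaling, and by less than 0.1 on the other scalings. On spike-in scaling the HOX median in OR1 was -0.53, the same shift as that of all genes. Then 1 HOX gene was up-regulated in OR1 (HOXD3, at 3.39) beside 2 down-regulated. In OR2, 2 were up-regulated (HOXC13 at 2.255 and HOXD3 at 2.06). The member up-regulated in both lines was thus HOXD3, in place of HOXC13. All genes then split into 770 up-regulated and 5603 down-regulated in OR1, and on no scaling into 1466 and 2845. On spike-in scaling 0 HOX genes were lower in OR2 than in OR1, and 0 noncoding RNAs and 0 surrounding genes were up-regulated in both lines. With no scaling, or scaling on probes above background, HOXC13 and HOXD3 both passed in OR2 and in both lines (2 and 2). With quantile normalization, scaling on probes above background, the authors' intensities, the median over probes or any probe, 1 regulator was up-regulated in both lines.

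Normexp, whose offset of 50 draws low signals together, gave 0 HOX genes in each count where the main count was not 0: up-regulated in OR1, OR2 and both, down-regulated in OR1, and higher or lower in OR2 than OR1. All genes then had 785 up-regulated and 1126 down-regulated in OR1, and 668 and 916 in OR2, of 43316. Normexp gave 0 noncoding RNAs in both directions, 1 surrounding gene up-regulated and 2 other homeobox genes down-regulated in both lines. Requiring detection on all 3 arrays left 1 HOX gene up-regulated in OR1, beside 1439 of all genes. It left 0 HOX genes lower in OR2 than OR1, and 0 noncoding RNAs in both directions. Without a background filter, HOX counts were 5 up and 5 down in OR1, 4 up and 3 down in OR2, 3 down in both, and 5 higher and 3 lower in OR2 than OR1. Of all 43316 genes, 4558 were then up and 3677 down in OR1, and 3687 and 3743 in OR2. The noncoding RNAs up in both were then 2, surrounding genes 12 up and 17 down, and other homeobox genes 9 up and 12 down. The median over probes gave 1 HOX gene up in OR1, 2 in OR2, 0 lower in OR2 than OR1, and 2 other homeobox genes down in both. All genes then had 1854 up in OR1 and 1541 in OR2. By any probe, 4 HOX genes were higher in OR2 than OR1.

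At a ratio of 4, 1 HOX gene was up and 1 down in OR1, and 0 were up in OR2 or both. Also, 0 HOX genes were higher or lower in OR2 than OR1. Of all genes, 464 were up and 607 down in OR1, and 381 and 518 in OR2. In both lines, 0 noncoding RNAs were then called in either direction, 1 regulator was down, 0 surrounding genes were up and 1 down, and 1 other homeobox gene was down. At 1.5, HOX counts were 3 up and 2 down in OR2, and 2 up and 1 down in both. At this ratio 3 HOX genes were lower in OR2 than OR1. Of all genes, 3734 were up and 4357 down in OR2 at 1.5. All genes were not counted over both lines together under any alternative. In both lines, 2 noncoding RNAs were up and 2 down, 3 regulators up and 12 down, 21 surrounding genes down and 9 other homeobox genes up. ALDH1A3 reversed under the median over probes, with log2 ratios of 0.34 in OR1 and 0.22 in OR2. Of 720 gene ratios, 96 moved by more than their technical SD, 40 of them on spike-in scaling and 33 under normexp. Except where an alternative's construction shows it, the cause was not tested. Ratios of HOX genes with signals near the floor (HOXA3, HOXB9 in OR1, HOXD3 in H1975) are limited by signal over background.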
